A study of Homo sapiens with 3 samples.

Results

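The genes described here encode enzymes and carriers of cellular redox control: both subunits of the enzyme that starts glutathione synthesis (GCLC and GCLM), glutathione reductase (GSR), sulfiredoxin (SRXN1), thioredoxin and its reductase (TXN and TXNRD1), heme oxygenase 1 (HMOX1), a quinone reductase (NQO1) and a peroxiredoxin (PRDX1). Their probes were found through the gene symbols of the array platform's annotation, which gave 9 of 18639 genes and 11 of 24460 gene probes. The set was chosen by gene name with the ratios of these same arrays already known, several of them high at 20 µM, so its counts below describe the arrays and were not tested.

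RNA came from HT29, an established human colorectal cancer cell line. The cells grew in low-glucose DMEM with fetal bovine serum and antibiotics, and the medium was then exchanged for 24 h. The control received the solvent DMSO, and the treated cells received 5 or 20 µM of a derivative of linderapyrone whose structure the labels do not give. Sample titles give these doses in mM, whereas treatment labels and descriptions give µM, which was used. The comparison was made to find genes whose expression differs with the derivative. Each of the 3 groups was 1 sample on 1 array, so the spread between cultures is unknown and no p-value is given. In bulk RNA, fewer cells with a transcript and less of it per cell cannot be told apart.

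Many of these genes belong to the program of the transcription factor NRF2. The adaptor KEAP1 normally hands NRF2 over for degradation, and reactive compounds that modify KEAP1 let NRF2 accumulate. NRF2 then binds, with a small MAF protein, a DNA sequence called the antioxidant response element (ARE), while BACH1 represses some of the same genes, HMOX1 above all. In tumours of the colon and other tissues the program supplies reducing power and limits damage by oxidants.

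RefSeq start-site sequences (GRCh38.p14) were held for 6 of the 9 genes, GCLC, GCLM, SRXN1, TXNRD1, TXN and NQO1, in 7 entries, since TXNRD1 had 2. The core letters of the ARE, TGACNNNGC, were searched on both strands from 250 bases before to 50 bases after each start. GCLM had 1 match and the TXNRD1 entries had 2 and 1, whereas GCLC, SRXN1, TXN and NQO1 had 0. Of 35116 such entries in the whole table, 4687 (13.3%) held a match. A match of so short a motif is a description of the letters and not evidence of binding, and 0 matches speak only of this window. The stretch from 150 bases before to 10 bases after the start is printed for the genes with high ratios at 20 µM, on the gene's own strand, with ARE matches in capitals.

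GCLM, chr1:93909421-93909580, minus strand: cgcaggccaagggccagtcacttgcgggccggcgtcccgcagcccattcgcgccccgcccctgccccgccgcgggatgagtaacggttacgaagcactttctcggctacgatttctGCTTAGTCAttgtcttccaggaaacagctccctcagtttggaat
TXNRD1, upstream start, chr12:104215629-104215788, plus strand: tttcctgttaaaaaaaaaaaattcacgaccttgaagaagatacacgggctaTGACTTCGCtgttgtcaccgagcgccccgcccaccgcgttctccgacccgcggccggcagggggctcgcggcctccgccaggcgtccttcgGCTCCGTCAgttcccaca
TXNRD1, downstream start, chr12:104286882-104287041, plus strand: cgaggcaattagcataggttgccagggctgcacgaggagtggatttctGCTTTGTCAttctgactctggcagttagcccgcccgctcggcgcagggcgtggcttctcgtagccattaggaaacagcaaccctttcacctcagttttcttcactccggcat
GCLC, chr6:53545092-53545251, minus strand: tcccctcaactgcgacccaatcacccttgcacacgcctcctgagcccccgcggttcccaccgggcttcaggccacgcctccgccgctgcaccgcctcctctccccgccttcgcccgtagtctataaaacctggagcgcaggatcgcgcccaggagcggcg
SRXN1, chr20:653191-653350, minus strand: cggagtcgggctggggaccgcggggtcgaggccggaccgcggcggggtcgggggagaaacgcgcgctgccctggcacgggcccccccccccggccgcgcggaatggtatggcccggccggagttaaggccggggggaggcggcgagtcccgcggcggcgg

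The match of GCLM began 34 bases before the start and lay on the opposite strand. Those of the upstream TXNRD1 entry began 99 and 8 bases before it, the first on the gene's strand and the second on the opposite one. That of the downstream TXNRD1 entry began 102 bases before its start, also on the opposite strand.

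The median spot signal over all gene probes was 117 on the DMSO array, 107 on the 5 µM array and 110 on the 20 µM array. A probe counted as detected above a threshold of 82.5, 79.4 and 80.2 on these arrays, and all 11 probes of the 9 genes passed it on every array. The treated arrays were dimmer as a whole. Positive control spots had mean log2 signal ratios to DMSO of -0.47 and -0.33 at 5 µM and of -0.36 and -0.26 at 20 µM. Ratios below are therefore of background-corrected and quantile-normalised signal, on a log2 scale with an offset of 50 that understates the differences of dim probes. Technical SDs were taken from the disagreement between both probes of genes that had 2. Variation that a whole array shares cancels in them and remains unknown. For a log2 ratio at 20 µM against DMSO, from 1978 such genes, the technical SD was 0.15. It was 0.11 for 5 µM against DMSO and 0.12 for 20 against 5 µM. Among genes whose 2 probes were both brighter than 200, it was 0.15 at 20 µM and 0.14 at 5 µM against DMSO, and 0.12 between the doses. The probe that stood for each of the 9 genes was brighter than 200 on every array. Multiples of the technical SD below use all pairs and are not a test of a change. The SRXN1 and TXNRD1 pairs were much farther apart at 20 µM, at 1.43 and 0.039 and at 1.01 and 0.028. In both pairs the lower probe lay near the detection threshold. All 12 colon epithelial markers on the array were detected, among them EPCAM, with a signal of 9660 in DMSO. CDX2 and CDH17 were close to the threshold, at 92.6 and 88.6. Some markers of other cell types also passed the threshold on every array. These were 4 of 6 for fibroblasts, 3 of 4 for blood and immune cells, and 2 of 3 each for endothelium and liver. DCN was the brightest of them with 231 in DMSO, but its other probe read 80.3, 77.8 and 78.5, below the threshold on every array. The summed signals of the fibroblast, immune, endothelial and liver markers in DMSO were 735, 408, 266 and 263, against 77407 for the epithelial markers. These sums include the blank level, 80.2 for each spot, and KRT18 alone gave 56135. Median signals in DMSO were 97.1, 90.1, 85.3 and 88.9 in the same order, against 461 for the epithelial markers. Of the markers of other cell types, PTPRC, PECAM1, COL1A1, COL1A2 and ALB did not pass on any array. The part of such cells in the results was not tested.

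At 20 µM, GCLC, SRXN1, HMOX1 and TXNRD1 were at least 2-fold above DMSO, GCLM was 1.61-fold above it, and GSR, NQO1 and TXN lay within 1.12-fold. PRDX1 was 1.27-fold below DMSO. Thus 4 of the 9 genes were at least 2-fold higher, against 0.442% of 16062 genes detected on both arrays, and 0 were at least 2-fold lower, against 0.324%. These ratios helped to choose the set, so nothing is read from that contrast. The median log2 ratio of the 9 genes was 0.69, beside 0.0071 over all genes.

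**Figure D1:**
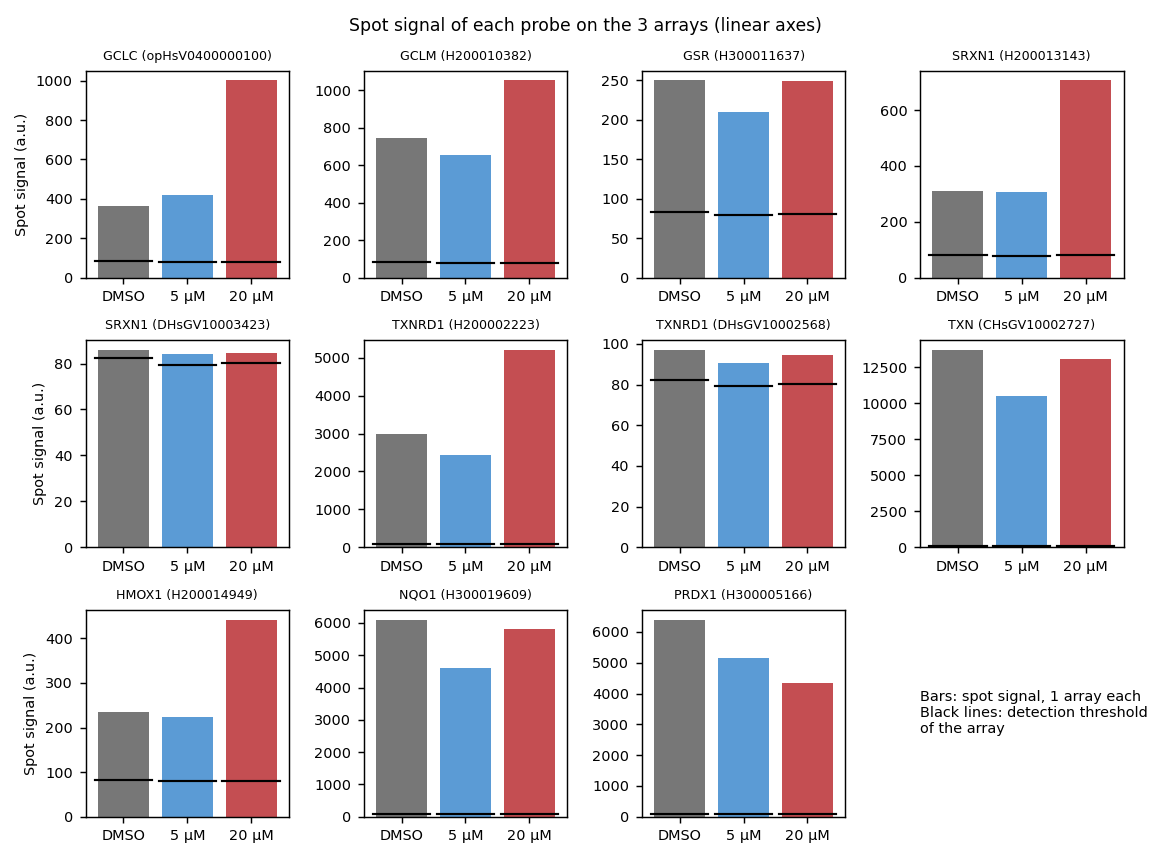
Spot signal, in arbitrary units on linear axes that start at 0, of each of the 11 probes in DMSO (grey), at 5 µM (blue) and at 20 µM (red), 1 array per bar, with the detection threshold of each array as a black line. GCLC goes from 366 to 1001 between DMSO and 20 µM, while the second probes of SRXN1 and TXNRD1 barely pass the threshold on any array.

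Glutathione synthesis begins with glutamate-cysteine ligase, whose catalytic subunit is GCLC and whose modifier subunit, GCLM, makes the enzyme more efficient. The GCLC probe (opHsV0400000100) gave a spot signal of 366 with DMSO alone, 418 with 5 µM and 1001 with 20 µM of the derivative. It was the 1 gene of the set whose uncorrected signal was also higher at 5 µM than in DMSO; the other 8 were lower, as were 97.4% of all detected genes on that dimmer array. After normalisation GCLC was 3.17-fold above DMSO at 20 µM, a log2 ratio of 1.66 that ranked 9 among 16062 genes and was 11.5 times the technical SD. At 5 µM it stood at 0.52, 1.44-fold above DMSO and 4.76 times the technical SD of that comparison.

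GCLM (H200010382) had spot signals of 746, 656 and 1053, in the same order of arrays. The 20 µM array was the brightest of the 3 for this gene, and its log2 ratio to DMSO was 0.69, 4.73 times the technical SD. At 5 µM the ratio was 0.15, 1.40 times the SD, and median scaling turned it to -0.064. Both subunits were thus higher at 20 µM, by 3.17-fold for GCLC and 1.61-fold for GCLM.

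GSR reduces oxidised glutathione with NADPH. Its probe (H300011637) gave 249, 210 and 249, practically equal at both ends. The normalised log2 ratio was 0.16 at 20 µM, 1.12 times the technical SD, and 0.0012 at 5 µM, where median scaling gave -0.14.

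The thioredoxin branch passes electrons from NADPH through thioredoxin reductase to thioredoxin, which in turn serves the peroxiredoxins. TXNRD1, the cytosolic reductase and a selenoprotein, had signals of 2986, 2443 and 5205 on its brighter probe (H200002223). The log2 ratio to DMSO was 1.01 at 20 µM, 6.99 times the technical SD, and 0.080 at 5 µM, within 1 SD. The 2-fold call was marginal: the authors' value table gave 1.98-fold and median scaling a log2 ratio of 0.88. Thioredoxin itself, TXN (CHsGV10002727), had signals of 13707, 10523 and 13084, with log2 ratios of 0.092 at 20 µM and 0.012 at 5 µM, both within 1 technical SD. Median scaling gave TXN -0.26 at 5 µM, and the scanner's background column gave it 1.12 at 20 µM, with TXNRD1 at -0.35.

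SRXN1 restores peroxiredoxins whose active-site cysteine has been over-oxidised. Its brighter probe (H200013143) read 309 in DMSO, 307 at 5 µM and 706 at 20 µM. That is a log2 ratio of 1.43, or 2.69-fold, at 20 µM, rank 19 among all genes, and of 0.29 at 5 µM, 2.61 times the technical SD. PRDX1, a peroxiredoxin that sulfiredoxin repairs, went the other way. Its probe (H300005166) read 6401, 5158 and 4343, lowest at 20 µM, with a log2 ratio of -0.34, or -2.37 technical SDs. At 5 µM PRDX1 stood at 0.077, within 1 SD, and median scaling gave -0.19 and the authors' value table -0.024. Among its relatives, PRDX2 and PRDX3 both stood at -0.26 at 20 µM, PRDX4 at -0.023 and PRDX6 at 0.059; these were named outside the naming rule.

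HMOX1 breaks heme down to biliverdin, iron and carbon monoxide. Its probe (H200014949) read 234, 224 and 442, the 20 µM array standing apart from both others. The log2 ratio was 1.16, or 2.24-fold, at 20 µM, 7.99 times the technical SD, and 0.22 at 5 µM, 2.01 times the SD. NQO1, which reduces quinones by a pair of electrons and is often used as a marker of NRF2 activity, had signals of 6104, 4617 and 5817 (H300019609). Its log2 ratio was 0.13 at 20 µM, 0.89 times the technical SD, and -0.029 at 5 µM. Both ratios lay within 1 technical SD, but they moved with the processing: median scaling gave -0.28 at 5 µM, and the scanner's background column gave 2.18 at 20 µM.

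**Figure D2:**
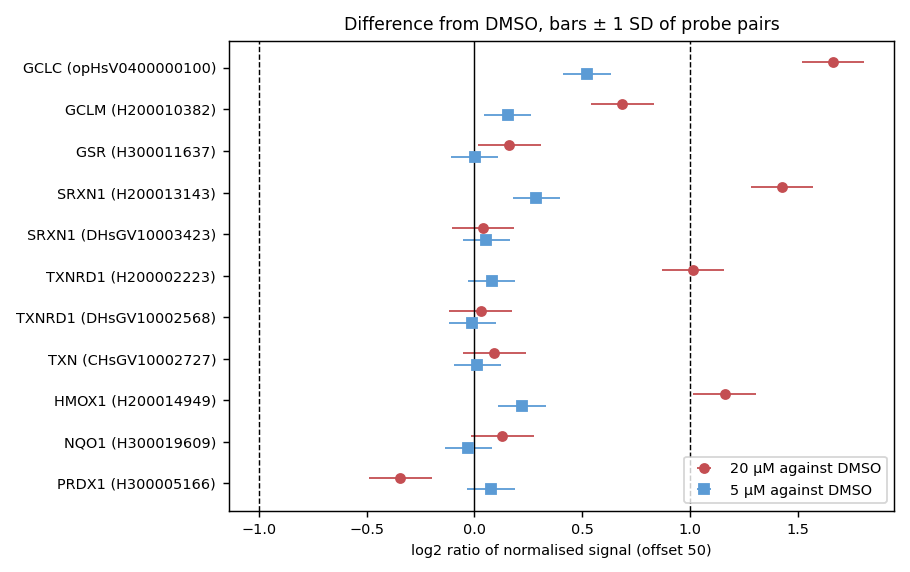
log2 ratio of normalised signal to DMSO for each probe, at 20 µM (red circles) and 5 µM (blue squares), with bars of ± 1 technical SD (0.15 and 0.11) and dashed lines at 2-fold. The bright probes of GCLC, SRXN1, HMOX1 and TXNRD1 reach the 2-fold line at 20 µM and none does at 5 µM; the second SRXN1 and TXNRD1 probes, close to the detection threshold, lie near 0.

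The genes with 2 probes, SRXN1 and TXNRD1, both had probes that disagreed. The other SRXN1 probe (DHsGV10003423) read 85.9, 84.1 and 84.7, at most 1.06 times the detection threshold, and gave log2 ratios of 0.039 at 20 µM and 0.055 at 5 µM. In the authors' value table this probe had values of 2.78, 3.90 and 3.80. The other TXNRD1 probe (DHsGV10002568) read 97.0, 90.5 and 94.4, at most 1.18 times the threshold, with ratios of 0.028 and -0.011. The annotation ties this probe to a genomic record, whereas the brighter TXNRD1 probe is tied to a transcript. Both SRXN1 probes are tied to the same transcript record. The value table put the dim SRXN1 probe 1.37-fold above DMSO at 20 µM and the dim TXNRD1 probe 1.11-fold. So near the threshold, a ratio close to 0 on the scale with the offset says little about either transcript. With all detected probes of a gene averaged, SRXN1 stood at 0.73 and TXNRD1 at 0.52, and 2 of the 9 genes, GCLC and HMOX1, were at least 2-fold higher. The matching share over all genes was not counted for these averages. The remaining 7 genes had 1 probe each, so their ratios have no second probe to set beside them.

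At 5 µM, 0 of the 9 genes were at least 2-fold from DMSO in either direction, against 0.0498% of 16075 genes higher and 0.00622% lower. GCLC, SRXN1 and HMOX1 had log2 ratios of 2.01 to 4.76 times the technical SD, and the other 6 lay within 1.40 SD of 0. These multiples use the SD of 0.11, and the SD of 0.14 among bright probe pairs would make them smaller. Of the 9 genes 8 were above 0, beside 52.0% of all genes, with a median of 0.080 beside 0.0043 over all genes. This direction depended on the scaling. Median scaling left 3 above 0, with a median of -0.14 beside -0.018 over all genes. The authors' value table left 4, with a median of -0.0061 beside -0.030 over all genes. That table also has the same median on every array, so these 2 settings are not independent of each other. The share of all genes above 0 was not counted under them. GCLC, SRXN1 and HMOX1 were above 0 in both, but under median scaling SRXN1 stood at 0.13 and HMOX1 at 0.070. Under median scaling the genes with a DMSO signal over 1000 had ratios lower by a median of 0.24 at 5 µM.

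Between the doses, the bright GCLC and SRXN1 probes each had a log2 ratio of 1.14 for 20 against 5 µM, HMOX1 and TXNRD1 of 0.94 and GCLM of 0.53. These 5 were 4.60 to 9.85 times the technical SD above 0. GSR, at 0.16, NQO1, at 0.16, and TXN, at 0.080, lay within 1.39 SD, and PRDX1 stood at -0.42, or -3.63 SD. Of the 9 genes 2 were at least 2-fold higher at 20 than at 5 µM, against 0.131% of 16036 genes, and 0 were at least 2-fold lower, against 0.0935%. Median scaling brought HMOX1 and TXNRD1 past 2-fold as well, 4 genes in all, while the count over all genes went from 21 to 36. Both doses were set against the same DMSO array, so their ratios to it are not independent of each other.

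The authors' value table, a linear intensity with about the blank level taken off, gave a like order without the offset. Its values were also scaled, with a median of 25 on every array. GCLC had a value of 135 with DMSO alone, 198 with 5 µM and 492 with 20 µM, or 3.63-fold at the higher dose. SRXN1 had 108, 134 and 335, or 3.08-fold, and HMOX1 73.0, 85.2 and 194, or 2.66-fold. By those values GCLC, SRXN1 and HMOX1, 3 of the 9 genes, were at least 2-fold higher at 20 µM than in DMSO, against 1.43% of genes, 0 at 5 µM against 0.335%, and 3 at 20 against 5 µM, against 0.935%.

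**Figure D3:**
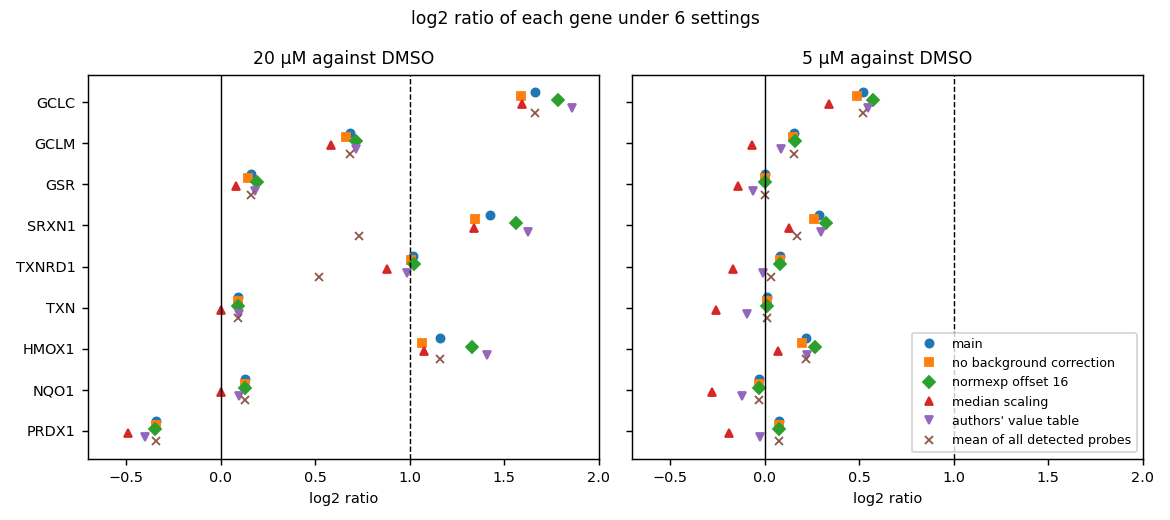
log2 ratio of each gene at 20 µM (left) and 5 µM (right) against DMSO under the main processing and 5 alternatives, with dashed lines at 2-fold. GCLC and HMOX1 stay past 2-fold at 20 µM in all 6, but they have 1 probe each, so averaging probes only repeats their main value. TXNRD1 moves across the line, and at 5 µM median scaling (red triangles) puts 6 of the 9 genes below 0. The alternative with the scanner's background column is not drawn.

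One alternative turned the direction of several genes. With the local background column of the scanner files taken off, SRXN1 stood at -0.33, TXNRD1 at -0.35 and HMOX1 at -0.25 at 20 µM against DMSO, while NQO1 stood at 2.18, GCLC at 1.95, GCLM at 1.69, TXN at 1.12 and PRDX1 at -3.78. The count of genes at least 2-fold higher was again 4, but these were NQO1, GCLC, GCLM and TXN, of which the main processing shared GCLC alone. The matching share over all genes was not counted with this column. At 5 µM GCLC stood at -0.13, and at 20 against 5 µM PRDX1 stood at 0.30. That column itself followed the spot signal, with Spearman correlations across gene probes of 0.967 to 0.971 on the 3 arrays. It was not used for the main values.

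The wider pathway was described through 6 lists of related genes, none of which shares a gene with the set. Of 117 listed genes, 103 were detected in both DMSO and 20 µM; 1 of them, SQSTM1, was at least 2-fold higher at 20 µM, 0 were at least 2-fold lower and 45 were above 0. Over all 16062 genes the shares were 0.442%, 0.324% and 52.8%, and the median was 0.0071. The lists were drawn up with earlier results of these arrays known.

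Among 31 detected genes of glutathione supply and use, 13 were above 0 at 20 µM (52.8% of all genes were), with a median log2 ratio of -0.067. GLRX, the cytosolic glutaredoxin, had the highest ratio at 0.76, from signals of 504, 478 and 738. MGST2, a microsomal glutathione transferase, had the lowest at -0.63, from 735, 522 and 429. The cystine carrier xCT, encoded by SLC7A11 and named outside the rule, stood at 0.55, and its partner SLC3A2 at 0.37. GSS, the enzyme that completes glutathione synthesis, stood at -0.16 and was likewise named outside the rule.

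Of 23 detected genes of the thioredoxin and peroxiredoxin system, 6 were above 0 at 20 µM, beside 52.8% of all genes, with a median of -0.046. By the probe that stood for each gene, those farthest from 0 were the selenoprotein gene SELENOW, at -0.41, and TXNRD2, the mitochondrial thioredoxin reductase, at -0.39. The sestrin gene SESN1, named outside the rule, counted as above 0 by its probe at 0.15, but its other probe stood farther out, at -0.75. TXNRD2 read 259, 194 and 183 and so ran opposite to its cytosolic relative TXNRD1.

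Of 19 detected heme and iron genes, 7 were above 0, beside 52.8% of all genes, with a median of -0.063. FTL, the ferritin light chain, which stores iron, stood at 0.46, with signals of 29659, 24528 and 41436. SLC40A1, the iron exporter ferroportin, stood at -0.90, with signals of 721, 418 and 353, and was at -0.49 at 5 µM. At 20 µM it was past 2-fold lower under median scaling, at -1.01, and in the authors' value table, at -1.05, where the dim GPX8 of the glutathione list was too, at -1.33. Biliverdin reductases, which act after HMOX1, stood at 0.10 for BLVRB and -0.18 for BLVRA, and HMOX2, the constitutive heme oxygenase, at -0.22. BLVRB, BLVRA and HMOX2 were named outside the rule.

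Of 11 detected genes of NADPH supply and quinone reduction, 7 were above 0, beside 52.8% of all genes, with a median of 0.19. PGD, of the pentose phosphate pathway, had the highest ratio at 0.56, and CBR1, a carbonyl reductase, the lowest at -0.55.

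Of 14 detected NRF2 regulators, 10 were above 0, beside 52.8% of all genes, with a median of 0.088. SQSTM1, the autophagy receptor p62, which can sequester KEAP1, had signals of 3786, 5855 and 12864 and stood at 1.93 at 20 µM and 0.98 at 5 µM. NFE2L1, a relative of NRF2, stood at 0.61, and its other probe at 0.51. The NRF2 gene itself, NFE2L2, stood at 0.23, KEAP1 at 0.12, BACH1 at -0.021 and the small MAF gene MAFF at 0.60, all named outside the rule. Transcripts of these regulators do not report the amount or location of the proteins. Of the 5 superoxide and peroxide enzymes, 2 were above 0, beside 52.8% of all genes, with a median of -0.28, with CAT, which encodes catalase, at -0.43 and SOD1 at -0.39.

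**Figure D4:**
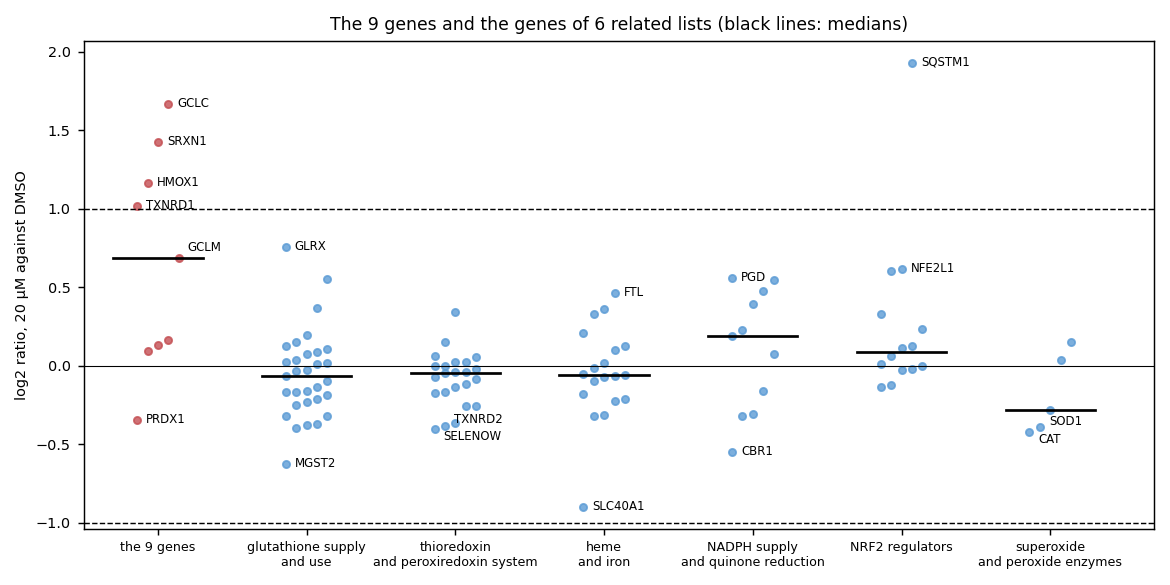
log2 ratio of normalised signal at 20 µM against DMSO for the 9 genes (red) and the detected genes of 6 related lists (blue), 1 point per gene, with medians as black lines and dashed lines at 2-fold. The median of the 9 genes is 0.69, those of the lists lie between -0.28 and 0.19, and SQSTM1 is the 1 listed gene past 2-fold.

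GCLC had the highest 20 µM ratio of the 9 genes, and the genes nearest to it in both ratios to DMSO were looked up among 15920 genes detected on all 3 arrays, as straight-line distance between the log2 ratios. They were GPAT3, an enzyme of triglyceride synthesis, at a distance of 0.043, then SERPINB8 at 0.16, the aldo-keto reductase gene AKR1B10 at 0.25, ARMCX3 at 0.26 and SDCBP2 at 0.30. GPAT3 had log2 ratios of 1.67 at 20 µM and 0.56 at 5 µM, and AKR1B10 of 1.42 and 0.47. With 3 arrays such nearness is a description of 2 ratios per gene.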

How the data were processed

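Per the labels' protocols, total RNA was amplified as amino allyl aRNA, and Cy5-coupled after Toray's protocol for its one-colour arrays. Per the file headers, the deposited values are the median intensity of each spot at 635 nm, read at 3 gains. The extraction software and the making of the authors' deposited intensity table are not given in the sources used here. By its values, that table is a straight-line rescaling of the spot signal to a median of 25 on each array. Signals were corrected with normexp (offset 50, signal of all spots) in limma 3.58.1 under R 4.3.3, taken to log2 and quantile normalised over 24460 gene probes. The steps were tested on simulated data. Only probes brighter than those of GCLC, SRXN1, GSR and HMOX1 in DMSO were changed there, so dimmer probes were not tested. Detection meant a signal above the mean plus 2 SD of 480 blank and negative spots, trimmed by 5% at each end. The probe detected on most arrays, then the brightest, stood for a gene. Differences are log2 ratios between single arrays, counted from 2-fold, with no test.

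The genes and lists were chosen with earlier results of these data known, and the planned comparisons were run as designed. Genes were named by rule: all 9, every listed gene past 2-fold and the 2 farthest from 0 in each list at 20 µM, and the 5 nearest to the highest of the 9. Alternatives were no background correction, the scanner's background column, an offset of 16, median scaling, the authors' table, a filter at 2 times the blank level, and the mean of all detected probes. Ratios, counts and motif searches ran in Python 3.11.15 (pandas 2.3.3, numpy 2.4.6); matplotlib 3.10.9 drew the plots.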

Additional observations from a re-analysis of the deposited data

How the results depend on the processing

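At 20 µM against DMSO, the count of genes at least 2-fold higher was 4 and became 2 with the mean of all detected probes, while the median of 0.69 became 0.52. With the background column that median was -0.24, HMOX1 stood at -0.25, SRXN1 at -0.33 and TXNRD1 at -0.35, and 1 gene, PRDX1, was at least 2-fold lower. At 5 µM against DMSO the median of 0.080 became -0.14 under median scaling and -0.071 with the background column, where again 1 gene, PRDX1, was at least 2-fold lower. For 20 against 5 µM, the count of 2 higher genes became 4 under median scaling and 1 with the mean of all probes. The median of 0.53 became 0.65 under median scaling and 0.30 with the background column, where SRXN1 stood at -0.26. The share of all genes past 2-fold was not counted with the mean of all probes or the background column. Nothing is therefore read from the counts under those settings. The cause of these shifts was not tested, except that averaging adds the dim probes of SRXN1 and TXNRD1. Of 27 ratios of single genes, 27 moved by less than the technical SD without background correction and 25 with an offset of 16. The number was 22 with averaged probes, 21 by the authors' values, 13 under median scaling and 2 with the background column. Averaging could only repeat the main value of the 7 genes with 1 probe. The stricter filter left all 27 unmoved, but it can only drop a gene and cannot change a ratio. Nothing about stability is therefore read from that setting. Signal over background limits GSR and HMOX1 most among the probes that stood for a gene, at 3.02 and 2.84 times the detection threshold in DMSO.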

Other observations

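Among the listed genes with several probes, the sestrin gene SESN1 had a pair of similarly bright probes that differed in direction; it was picked out after its values were seen. The probe that stood for the gene read 194, 180 and 193 in DMSO, at 5 µM and at 20 µM, a log2 ratio of 0.15 at 20 µM. The other read 221, 147 and 129, a ratio of -0.75. For CUL3, the scaffold of the ligase that KEAP1 serves, the brighter probe stood at 0.33 at 20 µM and the dimmer one at -0.041. Which transcripts these probes bind was not tested.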
